A study of Mus musculus with 9 samples.

Results

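The 8 genes for protein arginine methyltransferases, *Prmt1*, *Prmt2*, *Prmt3*, *Carm1*, *Prmt5*, *Prmt6*, *Prmt7* and *Prmt9*, were followed in pools of 8-cell mouse embryos in which mitochondrial fusion protein MFN1 or the histone variant H3.3 had been knocked down. They were found by gene symbol among the 55335 entries of each library, and each symbol occurred in all 9 libraries. The family was chosen by the measured H3.3-KD values of *Prmt1*, so its H3.3-KD levels are a description and carry no test, whereas MFN1-KD was compared with control by a test. Zygotes of ICR mice received siRNA by cytoplasmic injection and were cultured to the 8-cell stage. The siRNA was nontargeting in the control group and directed at *Mfn1* in MFN1-KD. H3.3-KD embryos received siRNAs to *H3f3a* and *H3f3b*, which encode the same H3.3 protein. Each of the 3 groups had 3 libraries, every library was a pool of embryos, and both knockdowns were compared with the same 3 control libraries. The labels give 5 to 10 embryos per group and the methods 10, so the number behind each library is not settled. Young and aged females were used in the study, and the sources used here do not say which gave these embryos.

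Protein arginine methyltransferases transfer methyl groups from S-adenosylmethionine to arginine side chains of histones and of RNA-binding proteins. PRMT1, PRMT2, PRMT3, CARM1 and PRMT6 can make asymmetric dimethylarginine, PRMT5 and PRMT9 make symmetric dimethylarginine, and PRMT7 makes monomethylarginine. PRMT1 is the main source of asymmetric dimethylarginine in most mouse cells and is required soon after implantation. PRMT5 is required for the pluripotent cells of the early embryo. CARM1 is known from work on early blastomeres, where its activity on histone H3 has been linked with a bias towards the inner cell mass.

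The promoters of 3 members are shown because they stand for the 3 patterns in the levels. *Prmt1* had the largest difference in H3.3-KD, *Prmt5* was the most abundant member in control and was also higher in H3.3-KD, and *Prmt7* had MFN1-KD libraries that all lay below control. Each sequence runs from 250 bases before to 50 bases after the RefSeq gene start on the gene's own strand (GRCm38.p6, the assembly also called mm10): *Prmt1* chr7:44986371-44986670 (minus strand), *Prmt5* chr14:54517421-54517720 (minus strand) and *Prmt7* chr8:106210804-106211103 (plus strand). Capitals mark matches, on either strand, to the GC box GGGCGG, the CCAAT box CCAAT, the TATA box TATAAA and the E-box CACGTG, and no marked stretch overlaps another.
Prmt1: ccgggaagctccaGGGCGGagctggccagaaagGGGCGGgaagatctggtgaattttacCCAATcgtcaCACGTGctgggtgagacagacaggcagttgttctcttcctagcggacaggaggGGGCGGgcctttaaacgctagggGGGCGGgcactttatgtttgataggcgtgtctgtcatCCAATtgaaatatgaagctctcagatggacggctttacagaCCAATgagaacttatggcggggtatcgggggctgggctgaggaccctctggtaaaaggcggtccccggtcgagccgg
Prmt5: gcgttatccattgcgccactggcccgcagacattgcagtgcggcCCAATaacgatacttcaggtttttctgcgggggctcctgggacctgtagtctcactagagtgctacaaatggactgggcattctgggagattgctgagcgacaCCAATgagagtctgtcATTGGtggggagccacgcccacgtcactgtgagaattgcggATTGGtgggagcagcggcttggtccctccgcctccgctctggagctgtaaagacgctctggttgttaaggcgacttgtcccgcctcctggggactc
Prmt7: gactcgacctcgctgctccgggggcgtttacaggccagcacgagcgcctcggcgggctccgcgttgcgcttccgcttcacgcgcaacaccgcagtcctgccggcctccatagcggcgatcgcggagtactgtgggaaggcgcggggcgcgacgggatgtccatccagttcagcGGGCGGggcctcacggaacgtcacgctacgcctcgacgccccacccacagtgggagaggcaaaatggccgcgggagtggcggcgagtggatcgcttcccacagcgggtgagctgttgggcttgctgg
The *Prmt1* window held 4 GC boxes, 3 CCAAT boxes and 1 E-box, the *Prmt5* window held 4 CCAAT boxes, and the *Prmt7* window held 1 GC box. Of 32851 promoter windows of the same length, 35.7% held a GC box, 37.4% a CCAAT box, 7.15% an E-box and 13.6% a TATA box. Windows with at least 3 matches were fewer, at 10.7% for the GC box and 3.37% for the CCAAT box. The windows of *Prmt1*, *Prmt5* and *Prmt7* held 17, 16 and 39 CG dinucleotides, beside a median of 7 in all windows. These matches describe the letters of the windows and not binding. In GENCODE M21 all 3 genes begin further upstream than the RefSeq start used here, so some marked matches in each window lie within the annotated gene. A RefSeq window was matched for 7 of the 8 members, and *Carm1* is named only.

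The knockdowns were visible in their own target transcripts. *Mfn1* in MFN1-KD was at 15.4% of its control mean (limma, adjusted p = 0.0431), and *H3f3a* and *H3f3b* in H3.3-KD were at 7.72% and 8.24% of theirs (limma, adjusted p = 7.23e-06 and 8.96e-06). The *Mfn1* call held in 7 of 17 alternatives, and its adjusted p reached 0.158 in limma. Its log2 fold change stayed between -3.20 and -2.05 in all of them. The unit is FPKM, in which fragments are divided by gene length and by library total, to set levels of different genes side by side. The tool and annotation behind the values are not given, so comparisons between genes are approximate. Read depth is unknown. MFN1-KD library 3 stood apart, with 15577 genes above 0 FPKM where the other libraries had 19250 to 24820, and with 1612 of the 13011 tested genes listed at 0 where the others had 357 to 592. The summed level of 9 markers of 8-cell embryos was 222 to 254 FPKM in control, 231 to 279 in MFN1-KD and 308 to 702 in H3.3-KD. These markers did not move together. *Pou5f1* was at 5.10 to 8.90 FPKM in control and 63.1 to 392 in H3.3-KD, while *Sall4* was at 106 to 139 and 42.7 to 50.7. The sum of 9 oocyte transcripts ranged from 27.5 to 52.7 FPKM over all libraries. The sum of 11 cumulus cell markers was 16.1 to 29.9 FPKM in control, 10.3 to 19.9 in MFN1-KD and 38.5 to 76.3 in H3.3-KD, with *Fshr* listed at 0 in every library. *Amhr2* made up most of each sum, and in H3.3-KD library 3, at 76.3 FPKM, it stood at 66.1 and *Dcn* at 8.39 FPKM. The 4 sperm transcripts summed to 0 to 2.93 FPKM. Whether embryo stage or these transcripts have a part in the H3.3-KD levels was not tested. Because each library is a pool, a change in the cells of a pool and a change in RNA per cell cannot be told apart.

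Control embryos expressed the family at moderate levels led by *Prmt5*. *Prmt5* stood at 42.3 ± 9.12 FPKM (SD, n = 3), and its range, 31.7 to 47.9 FPKM, was separate from that of every other member. *Prmt3* at a mean of 15.7 FPKM, *Prmt6* at 11.5, *Prmt9* at 8.37, *Prmt7* at 7.19 and *Prmt1* at 4.42 followed, and the ranges of each pair of neighbours in this order overlapped. *Carm1*, at a mean of 1.87 FPKM, overlapped with *Prmt1* above it and was separate from *Prmt2* below it, which had 0.51 FPKM. The summed level of the 8 genes was 91.9 ± 15.4 FPKM (SD, n = 3) in control, 89.1 ± 3.64 FPKM in MFN1-KD, and 763 ± 72.6 FPKM in the H3.3-KD libraries. Without *Prmt1* the sums were 87.4, 86.0 and 181 FPKM in the same order, so the H3.3-KD ratio to control was 8.31 with *Prmt1* and 2.07 without it.

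**Figure D1:**
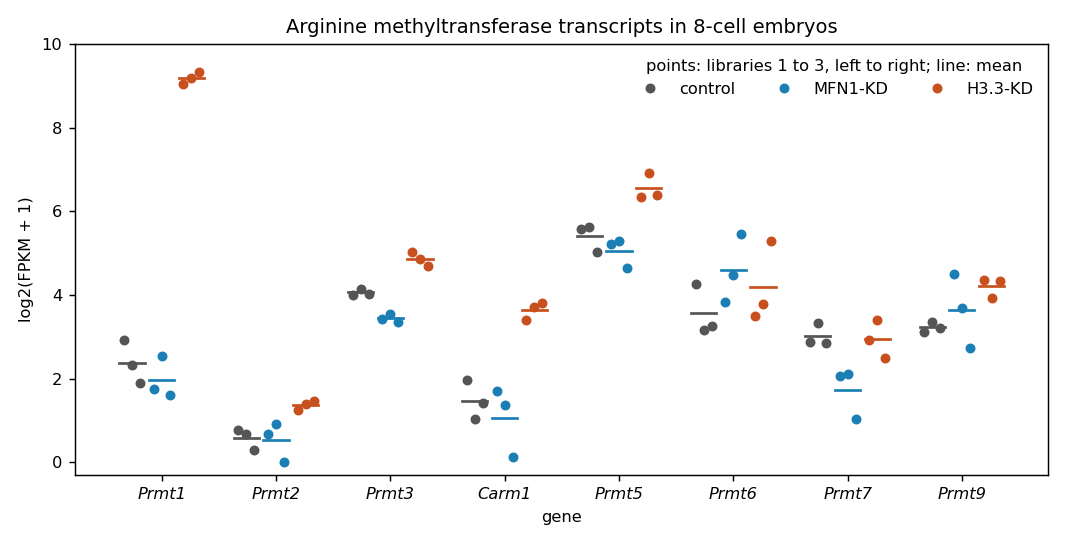
Level of the 8 genes in each library, as log2(FPKM + 1) on the vertical axis, with 3 points for the libraries of each group (control grey, MFN1-KD blue, H3.3-KD orange) and a line at their mean. The *Prmt1* points of H3.3-KD, at 523 to 639 FPKM, lie above every other point, and the *Prmt7* and *Prmt3* points of MFN1-KD lie below those of control.

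*Prmt1* changed from a minor to the leading member of the family in H3.3-KD embryos. It measured 6.56, 4.01 and 2.70 FPKM in control libraries 1 to 3, 2.39, 4.84 and 2.05 FPKM in MFN1-KD, and 523, 586 and 639 FPKM in H3.3-KD. Every H3.3-KD library was far above the other 6, whereas the MFN1-KD and control libraries overlapped. The H3.3-KD mean of 583 ± 58.0 FPKM was 132-fold that of control, 4.42 ± 1.96 FPKM (SD, n = 3 in each), and the difference on the log2(FPKM + 1) scale was 6.81 (SE 0.34), the second highest of the 13011 genes. Among the tested genes of a library, *Prmt1* held ranks 6684 to 8608 from the top in control and ranks 248 to 320 in H3.3-KD. It made up 3.61 to 6.28% of the summed FPKM of the family in control and 74.7 to 77.6% in H3.3-KD. In H3.3-KD *Prmt1* thus stood above *Prmt5* in every library, while in control it was below *Prmt5*, *Prmt3*, *Prmt6*, *Prmt9* and *Prmt7* by its mean.

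**Figure D2:**
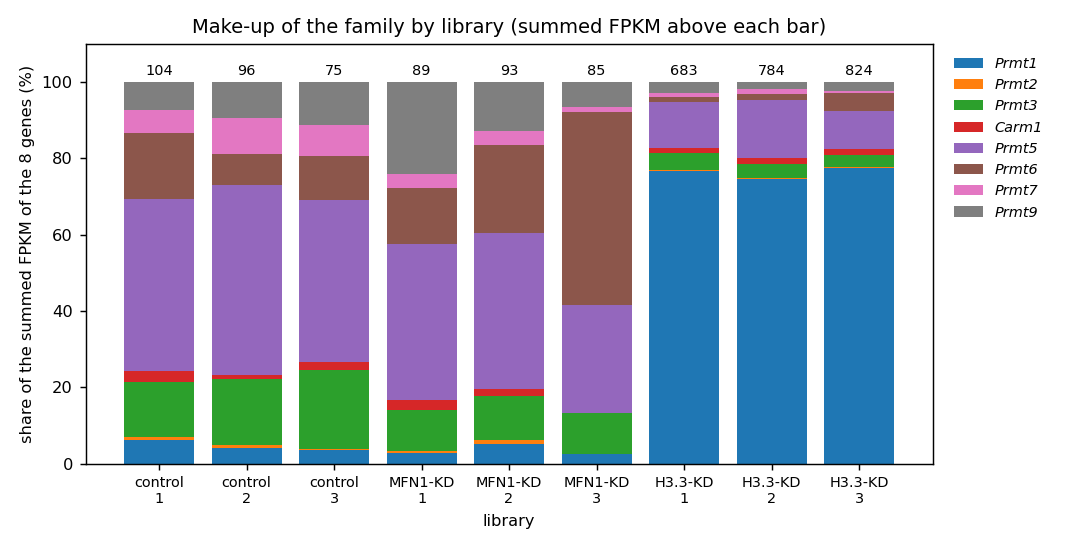
Share of each gene, in percent, in the summed FPKM of the 8 genes in each library, with the sum in FPKM printed above the bar. *Prmt5* forms the widest band in the control libraries, at 42.5 to 49.7%, *Prmt6* in MFN1-KD library 3, at 50.5%, and *Prmt1* in the H3.3-KD libraries, at 74.7 to 77.6%.

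The other genes for enzymes of asymmetric dimethylation differed in level and in pattern. *Carm1* measured 2.90, 1.04 and 1.66 FPKM in control, 2.27, 1.59 and 0.09 in MFN1-KD, and 9.56, 12.0 and 13.1 in H3.3-KD. The H3.3-KD libraries were all above the control libraries, and their mean was 6.19-fold higher, a log2 difference of 2.17 (SE 0.45). The *Carm1* gene overlaps *Yipf2* on the other strand over 3942 bases. The strand setting behind the values is not given, so the 2 genes may share reads in that stretch. *Yipf2* itself measured 2.04 to 8.96 FPKM in control and 2.41 to 3.41 FPKM in H3.3-KD. *Prmt3*, whose enzyme methylates ribosomal protein RPS2, measured 15.1, 16.8 and 15.3 FPKM in control, 9.66, 10.7 and 9.17 in MFN1-KD, and 31.5, 28.0 and 24.8 in H3.3-KD. Its 3 groups did not overlap, with MFN1-KD lowest and H3.3-KD highest. *Prmt2*, a weakly active member known as a coactivator of nuclear receptors, stayed under 2 FPKM in every library, between 0.23 and 0.72 FPKM in control, 0 and 0.90 in MFN1-KD, and 1.37 and 1.77 in H3.3-KD. Its mean over the 9 libraries was 0.87 FPKM, under the minimum of 1 FPKM for a test, so it was not fitted. *Prmt6*, which acts on histone H3, varied within each group, at 18.1, 7.88 and 8.60 FPKM in control, 13.3, 21.4 and 43.1 in MFN1-KD, and 10.3, 12.8 and 38.4 in H3.3-KD. Its groups overlapped in both comparisons, and library 3 was the highest of each knockdown.

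The genes for the symmetric enzymes were both higher in H3.3-KD by their ranges. *Prmt5* measured 47.1, 47.9 and 31.7 FPKM in control, 36.4, 38.0 and 24.2 in MFN1-KD, and 80.7, 120 and 82.6 in H3.3-KD. Its H3.3-KD mean was 2.23-fold that of control, a log2 difference of 1.14 (SE 0.28), while MFN1-KD and control overlapped. *Prmt9*, whose enzyme methylates the splicing factor SF3B2, measured 7.65, 9.15 and 8.31 FPKM in control, 21.6, 11.9 and 5.66 in MFN1-KD, and 19.4, 14.3 and 19.3 in H3.3-KD. The MFN1-KD libraries of *Prmt9* lay on both sides of control. *Prmt7*, the gene for the monomethylating enzyme, measured 6.31, 9.08 and 6.17 FPKM in control, 3.15, 3.32 and 1.05 in MFN1-KD, and 6.62, 9.55 and 4.59 in H3.3-KD. Its MFN1-KD libraries were all below control, and its H3.3-KD libraries overlapped with control.

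Compared with control, MFN1-KD gave no member a change at an adjusted p under 0.05 in limma, over the 13011 genes whose mean reached 1 FPKM. Of all genes tested, 1.15% were called higher and 2.20% lower at this threshold. At an unadjusted p under 0.05 there were 2 of 7 members, beside 23.2% of all genes. *Prmt7* had the smallest p of the family. Its MFN1-KD mean was 34.9% of control, and the log2 fold change was -1.28 (SE 0.40, 95% confidence interval -2.16 to -0.40, limma, adjusted p = 0.0945). It was the only member past the study's threshold of more than 2-fold with an unadjusted p under 0.05, a threshold that 5.02% of all genes passed as higher and 9.05% as lower. Without MFN1-KD library 3 the value was -0.93 (limma, adjusted p = 0.183), which is less than 2-fold on the log2(FPKM + 1) scale. In FPKM, the mean of MFN1-KD libraries 1 and 2 was 45.0% of control. Over all alternatives the adjusted p of *Prmt7* ranged from 0.0765 to 0.300. *Prmt3* was at 62.7% of control, with a log2 fold change of -0.62 (SE 0.24, limma, adjusted p = 0.160), and at -0.58 without library 3. *Prmt7* and *Prmt3* were the 2 of 7 tested members whose MFN1-KD libraries all lay below control, where 16.8% of all genes did so and 11.4% had all MFN1-KD libraries above control.

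The remaining 5 fitted members overlapped with control in MFN1-KD. *Prmt6* had a log2 fold change of 1.04 (SE 0.55) with an adjusted p of 0.294 in limma, and 0.60 without library 3. *Prmt1* at -0.40 (SE 0.34), *Carm1* at -0.40 (SE 0.45), *Prmt5* at -0.36 (SE 0.28) and *Prmt9* at 0.41 (SE 0.41) had adjusted p-values of 0.514, 0.637, 0.484 and 0.582 in limma. The 95% confidence interval ran from -1.16 to 0.35 for *Prmt1* and from -0.98 to 0.27 for *Prmt5*. Without library 3, *Carm1* was at 0.073 and *Prmt9* at 0.87, so the sign of *Carm1* rested on that library. The sign of *Prmt9* rested on MFN1-KD library 1, without which it was at -0.014. The median of the 7 members was -0.40, beside -0.085 for all genes tested.

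**Figure D3:**
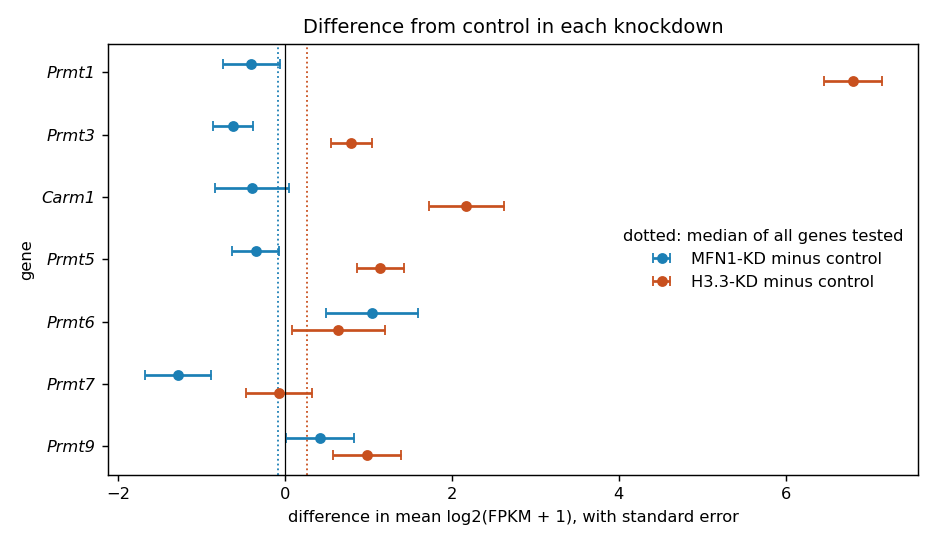
Difference from control in mean log2(FPKM + 1) on the horizontal axis for the 7 members that were fitted, MFN1-KD in blue and H3.3-KD in orange, with bars of 1 standard error and dotted lines at the medians of all genes tested (-0.085 and 0.26). *Prmt1* in H3.3-KD stands at 6.81, and *Prmt7* is the lowest MFN1-KD point at -1.28.

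In H3.3-KD the values of the members were spread from *Prmt7* at -0.078 (SE 0.40) to *Prmt1* at 6.81, with *Prmt6* at 0.64 (SE 0.55), *Prmt3* at 0.79 (SE 0.24) and *Prmt9* at 0.98 (SE 0.41) on the log2(FPKM + 1) scale. On this scale *Prmt1*, *Carm1* and *Prmt5* were more than 2-fold higher, as were 26.0% of all genes tested, and 12.0% of genes were more than 2-fold lower. In FPKM, the H3.3-KD mean of *Prmt9* was 2.11-fold that of control, and that of *Prmt2*, which was not fitted, 3.10-fold. In 5 of the 7 fitted members every H3.3-KD library was above every control library, as in 34.5% of all genes, and 18.9% of genes had them all below. At an adjusted p under 0.05, 21.8% of all genes were higher and 9.12% lower. These shares are background to the counts, since the contrast was used to choose the family. The median of the members was 0.98 and that of all genes 0.26, and median-ratio scaling, which moved the median of all genes to 0, gave *Prmt1* 6.49, *Carm1* 1.90, *Prmt5* 0.81, *Prmt9* 0.67, *Prmt3* 0.47, *Prmt6* 0.33 and *Prmt7* -0.37.

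The H3.3-KD differences of all genes moved with the GC content of the transcripts, and the members differ in it. *Carm1*, at 57.4% GC, falls in the highest of 10 GC classes of equal size, whose median H3.3-KD difference was 1.10. *Prmt1*, at 54.7%, and *Prmt7*, at 53.3%, fall in a class with a median of 0.64, in which *Prmt1* had the highest value of 1277 genes. *Prmt3*, at 44.2%, and *Prmt9*, at 43.1%, fall in classes with medians of -0.018 and -0.10. After the trend over GC content and length was removed from each library, *Prmt1* stood at 5.97, *Carm1* at 0.95, *Prmt9* at 0.79, *Prmt3* at 0.49, *Prmt5* at 0.33, *Prmt6* at -0.13 and *Prmt7* at -0.97. *Prmt1* was then the only fitted member more than 2-fold higher, and the sign of *Prmt6* turned.

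The genes beside *Prmt1* on chromosome 7 stayed at low levels in all groups. *Prmt1* lies at chr7:44975989-44986568 on the minus strand in GENCODE M21. On its 5′ side, *Gm15545*, an antisense transcript on the other strand that starts 332 bases away, measured 0.91, 0.21 and 0.70 FPKM in control and 3.50, 3.38 and 6.40 FPKM in H3.3-KD. In MFN1-KD it was at 0 to 0.21 FPKM. It reached the minimum mean of 1 FPKM only through H3.3-KD, so its log2 difference there, 1.74 (SE 0.37), is given without a test. The next genes were *Bcl2l12*, a regulator of apoptosis, and *Irf3*, a transcription factor of the interferon response. Their H3.3-KD values were 0.46 and 0.89, and *Irf3* had an adjusted p of 0.190 in limma. On the 3′ side, *Cpt1c*, a brain form of carnitine palmitoyltransferase, at 1138 bases, and *Tsks*, a testis kinase substrate, had 1.04 and 0.70. *Tsks* had an adjusted p of 0.215 in limma, and *6530437J22Rik* did not pass 0.07 FPKM in any library. *Bcl2l12* and *Cpt1c* also reached the minimum mean only through H3.3-KD, so their values there are given without a test. The highest library of any of these 6 neighbours was at 6.40 FPKM, beside 639 FPKM for *Prmt1*.

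**Figure D4:**
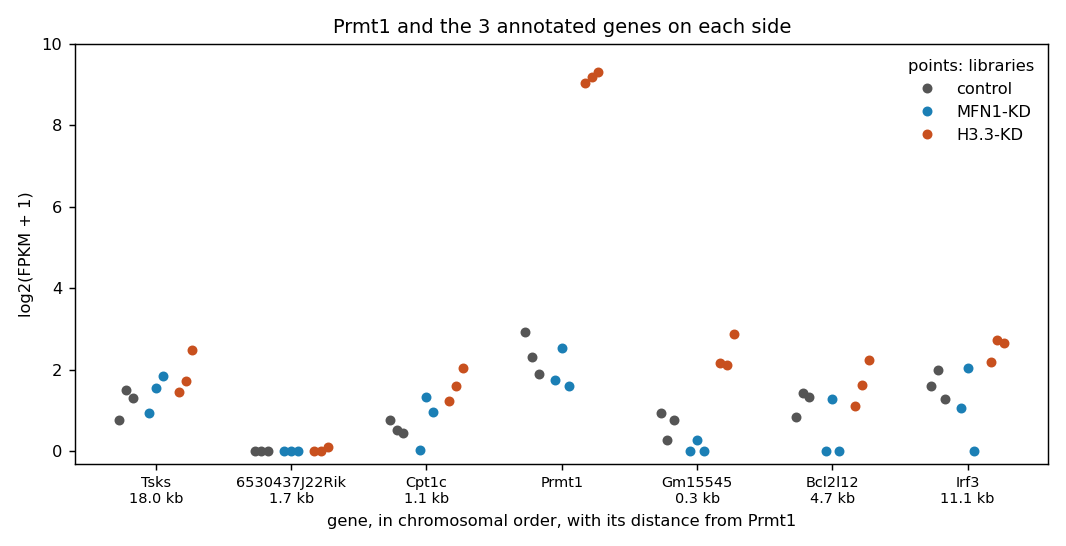
Levels of *Prmt1* and of the 3 annotated genes on each side of it, in chromosomal order, as log2(FPKM + 1) with 1 point for each library (control grey, MFN1-KD blue, H3.3-KD orange) and the distance from *Prmt1* in kb under each name. In H3.3-KD, *Prmt1* lies above 9 on this scale and each neighbour below 3.

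The genes whose pattern over the 9 libraries was most like that of *Prmt1* were *Rpp25* (Pearson r = 0.997), *Hdgf* (0.996), *Dazap1* (0.995), *Retreg3* (0.995) and *Fbxo31* (0.994), out of 5932 other genes whose mean reached 10 FPKM. They share libraries and the H3.3-KD contrast with *Prmt1*, and these values are descriptions. *Rpp25*, *Dazap1*, *Retreg3* and *Fbxo31* reached that minimum only through H3.3-KD, so part of their likeness to *Prmt1* was fixed by the filter. *Rpp25*, which encodes a subunit of ribonuclease P, measured 0.78 to 1.18 FPKM in control and 86.3 to 127 FPKM in H3.3-KD, and *Dazap1*, an RNA-binding protein gene, from a control mean of 1.43 FPKM to 28.8 to 32.6 FPKM. *Hdgf* was high already in control, at 171 to 236 FPKM, and stood at 606 to 622 FPKM in H3.3-KD. For the other members the most similar genes were *Sys1* for *Prmt3* (0.997), *Cnot3* for *Carm1* (0.993), *Toe1* for *Prmt5* (0.992), *Riok2* for *Prmt7* (0.971), *Jmy* for *Prmt6* (0.970) and *Tex10* for *Prmt9* (0.955). Of these, *Cnot3* also reached the minimum only through H3.3-KD. Within the family, *Prmt1*, *Carm1*, *Prmt5* and *Prmt3* had coefficients of 0.86 to 0.94 with each other over the same 9 libraries, and *Prmt6* and *Prmt7* had -0.73.

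Relatives outside the family list were measured as well, and neither of the 2 that were tested passed in either knockdown. *Prmt8*, the closest relative of *Prmt1*, did not pass 0.09 FPKM in any library. *Ndufaf7*, a mitochondrial arginine methyltransferase for a subunit of complex I, ranged from 26.8 to 41.9 FPKM in control, 27.2 to 36.0 in MFN1-KD and 30.2 to 35.5 in H3.3-KD. *Mettl23*, an arginine methyltransferase of histone H3 in oocytes, measured 29.9, 35.3 and 30.4 FPKM in control and 15.9, 13.4 and 0.05 in MFN1-KD. The MFN1-KD libraries were all lower, the log2 fold change was -2.37 (SE 0.90, limma, adjusted p = 0.158), and library 3 held the lowest value. Without library 3 it was at -1.07 (limma, adjusted p = 0.148, and 0.0899 to 0.372 over all alternatives).

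The genes *Wdr77*, *Clns1a* and *Coprs* for partners of PRMT5 were lower in MFN1-KD by their ranges without passing the test, and *Riok1* was not. *Wdr77*, the obligate partner in the methylosome, measured 143, 153 and 133 FPKM in control, 84.5, 100.8 and 93.8 in MFN1-KD, and 298, 270 and 359 in H3.3-KD. *Clns1a*, which brings Sm proteins to PRMT5, measured 349, 504 and 354 FPKM in control and 262, 222 and 188 in MFN1-KD. *Coprs*, which directs PRMT5 to histones, measured 33.2, 38.3 and 36.1 FPKM in control and 18.9, 15.5 and 22.1 in MFN1-KD. In these 3 of the 6 partners tested the MFN1-KD libraries all lay below the control libraries, as in 16.8% of all genes. Their log2 fold changes were -0.62, -0.84 and -0.90, with adjusted p-values of 0.0993, 0.0587 and 0.0945 in limma. *Riok1*, an alternative adaptor of PRMT5, was at 0.43 in MFN1-KD (limma, adjusted p = 0.486) with overlapping libraries. In H3.3-KD *Wdr77* rose by 1.10 (limma, adjusted p = 0.00238) and passed in every alternative, while *Clns1a*, at -0.21, *Coprs*, at -0.24, and *Riok1*, at 0.50, had adjusted p-values of 0.484, 0.555 and 0.294 in limma. *Btg1* and *Btg2*, which bind PRMT1, rose in H3.3-KD by 1.74 and 1.78 (limma, adjusted p = 5.56e-04 and 0.00667). Of the 6 partners tested, 3 rose and none fell in H3.3-KD at an adjusted p under 0.05 in limma, beside 21.8% and 9.12% of all genes. None passed in MFN1-KD, where 4 had an unadjusted p under 0.05, as did 23.2% of all genes. These were *Wdr77*, *Clns1a* and *Coprs*, which were lower, and *Btg1*, which was higher at 0.64.

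Genes for substrates of the enzymes were mostly higher in H3.3-KD. Of 30 substrate genes, all tested, 17 rose, 1 fell and 12 did not pass at an adjusted p under 0.05 in limma, which is 56.7% higher beside 21.8% of all genes, with a median of 1.08 beside 0.26. *Ewsr1*, which encodes an RNA-binding protein, measured 28.6, 24.3 and 23.0 FPKM in control, 15.1, 30.5 and 20.3 in MFN1-KD, and 169, 155 and 156 in H3.3-KD, where every library lay above control. *Ewsr1* and *Taf15*, another RNA-binding protein gene, rose by 2.62 and 1.52 in H3.3-KD (limma, adjusted p = 1.77e-04 and 0.0405), and the call of *Taf15* was lost in 11 of 17 alternatives. *Rps2*, the ribosomal substrate of PRMT3, measured 337 to 354 FPKM in control and 1183 to 2118 in H3.3-KD, a rise of 2.33 (limma, adjusted p = 4.32e-04), whereas *Sf3b2*, the substrate of PRMT9, was at 0.36 (limma, adjusted p = 0.453). The Sm protein genes, whose products PRMT5 methylates before snRNP assembly, differed among themselves in H3.3-KD. *Snrpd3* rose by 1.87, *Snrpd1* fell by 1.32, and *Snrpb* was at -0.12 (limma, adjusted p = 2.84e-04, 9.32e-04 and 0.822). After the GC and length trend was removed, 14 substrate genes were higher and 4 lower, and both scalings gave 12 higher. *Ewsr1*, *Taf15*, *Snrpd1* and *Snrpd3* were chosen for naming after their values were seen.

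In MFN1-KD the substrates gave 1 call, *Snrpb*, which fell by 1.53 (SE 0.36, limma, adjusted p = 0.0479) from 385, 497 and 466 FPKM in control to 200, 235 and 76.8 FPKM. This call held in 5 of 17 alternatives, and its adjusted p reached 0.182. *Rps2* and *Sf3b2* were at 0.06 and -0.44 in MFN1-KD, with adjusted p-values of 0.933 and 0.477 in limma.

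For genes that supply the methyl group or read the mark, the shares called in H3.3-KD were not far from those of all genes. Few genes that act on the mark were tested. In the S-adenosylmethionine cycle, 14 of 15 genes were tested, and in H3.3-KD *Mtr* and *Mtrr*, which serve the remaking of methionine, rose by 2.06 and 1.31, while *Adk*, adenosine kinase, fell by 1.75 (limma, adjusted p = 0.00366, 0.00498 and 0.00202). That is 2 of 14 higher and 1 lower, beside 21.8% and 9.12% of all genes. The *Mtrr* call was lost after the GC and length trend was removed. *Mat2a*, which makes S-adenosylmethionine, was abundant in all groups, at 394 to 618 FPKM in control, and was at 0.65 and 0.69 in MFN1-KD and in the other knockdown (limma, adjusted p = 0.175 and 0.0710). *Slc25a26*, the mitochondrial carrier of S-adenosylmethionine, had the smallest p of this list in MFN1-KD, at -0.91 (limma, adjusted p = 0.154). Among 11 tested genes of Tudor domain proteins, which bind methylated arginine, *Smn1*, *Akap1* and *Smndc1* rose in H3.3-KD by 2.14, 1.75 and 0.80 (limma, adjusted p = 4.62e-04, 0.00272 and 0.0300). These 3 of 11 are 27.3% higher, beside 21.8% of all genes, and none was called lower. *Smn1* and *Akap1* passed in every alternative and *Smndc1* in 8 of 17, and *Tdrd3* was at 0.89 (limma, adjusted p = 0.204). *Jmjd6*, a nuclear oxygenase reported to act on methylated arginine, rose by 1.26 in H3.3-KD (limma, adjusted p = 0.00992), a call lost under both scalings and after GC and length removal, where its adjusted p was 0.236.

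*Padi6*, an arginine deiminase relative and a component of the oocyte cytoplasmic lattices, measured 13.2, 14.7 and 12.8 FPKM in control, 4.53, 4.54 and 0.33 in MFN1-KD, and 14.1, 14.9 and 6.91 in H3.3-KD. Its MFN1-KD libraries were all below control, at a log2 fold change of -2.08 (SE 0.54, limma, adjusted p = 0.0622), and at -1.39 without MFN1-KD library 3. Over 16 alternatives the adjusted p ran from 0.0471 to 0.205. *Ddah1* and *Ddah2*, which break down free methylarginines, passed in neither knockdown. *Ddah1* was at 0.82 in MFN1-KD (limma, adjusted p = 0.269) and *Ddah2* at 1.98 in H3.3-KD (limma, adjusted p = 0.0515).

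Genes that earlier work linked with CARM1 in blastomeres gave calls in both directions. Of 8 tested, 3 were called higher and 1 lower in H3.3-KD, beside 21.8% and 9.12% of all genes. *Cdx2*, among the 3, reached the minimum mean only through H3.3-KD, and without it 2 of 7 rose. *Prdm14*, a pluripotency regulator, fell by 1.56 (limma, adjusted p = 0.00825) from 4.57, 5.02 and 4.47 FPKM in control to 0.92, 1.87 and 0.29 FPKM. *Pou5f1*, the pluripotency factor OCT4, rose by 4.65 (limma, adjusted p = 9.02e-04), from 5.10 to 8.90 FPKM in control to 330, 392 and 63.1 FPKM. The other call, *Nono*, was lost in 8 of 17 alternatives. *Neat1*, the long noncoding RNA of paraspeckles, was at 0.26 to 0.84 FPKM in control and 0.31 to 0.83 in H3.3-KD. In MFN1-KD, *Sfpq*, a paraspeckle protein gene, and *Sox21* rose by 1.49 and 1.42 (limma, adjusted p = 0.0366 and 0.04997). *Sfpq* passed in 8 and *Sox21* in 4 of 17 alternatives, and without MFN1-KD library 3 the adjusted p-values in limma were 0.0575 and 0.0964. *Prdm14* was at -0.88 in MFN1-KD (limma, adjusted p = 0.176), with all libraries below control.

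Over the 75 tested genes of all these lists but the lysine enzymes, 29 were called higher and 3 lower in H3.3-KD at an adjusted p under 0.05 in limma, beside 21.8% and 9.12% of all genes, and 28 of 74 higher without *Cdx2*. The substrates, 30 of the 75 genes, gave 17 of the 29 higher calls. In MFN1-KD 2 rose and 1 fell, beside 1.15% and 2.20% of all genes. The 29 tested genes of a list of lysine methyltransferases and their relatives gave 10 higher and 1 lower in H3.3-KD at the same threshold, with a median of 0.51, and 1 higher, *Ezh2*, in MFN1-KD. *Kmt5c*, among the 10, reached the minimum mean only through H3.3-KD, which leaves 9 of 28. After GC and length removal 3 were higher and 3 lower, upper-quartile scaling gave 4 and 2, and median-ratio scaling gave 6 and 1. With a library left out 4 to 11 were higher, 4 without control library 3 and 5 without control library 2 or H3.3-KD library 1. *Setd1a*, the highest of them in H3.3-KD, rose by 2.71 (limma, adjusted p = 6.00e-04), from 1.89 to 3.58 FPKM in control to 21.1 to 23.2 FPKM. *Ezh2*, the enzyme of Polycomb repression, rose in MFN1-KD by 1.44 (limma, adjusted p = 0.0382), a call that held in 8 of 17 alternatives and not without MFN1-KD library 3 (limma, adjusted p = 0.0635).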

How the data were processed

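RNA of 9 pools of 8-cell embryos was amplified by Smart-Seq2 with an oligo-dT primer and sequenced by the authors. Per the submitters' processing notes, reads were trimmed with cutadapt 1.16 and mapped to mm10 with STAR. The authors tested counts with Deseq2, and deposited FPKM values rounded to 2 decimals, so the test planned for FPKM was used. What made the FPKM values, the annotation and the strand setting are not given in the sources used here. Depth is unknown, since no read steps were found in the values, and whether pools of a group came from separate mothers is not given, so p-values measure the spread between these pools.

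The 13011 genes whose mean over the 9 libraries reached 1 FPKM were fitted as log2(FPKM + 1) in 1 linear model of all libraries with limma 3.58.1 (trend and robust options, R 4.3.3), with Benjamini-Hochberg adjustment over all of them. Fold changes on this scale understate changes of low genes. The test was checked on simulated data. In the MFN1-KD comparison of those data it recovered 124 of the 200 changed genes (62%) and missed the others, with 9 false calls. GC content, length (12770 genes) and positions came from GENCODE M21, and promoters from RefSeq. Trends over GC content and length were removed with splines of 5 degrees of freedom. Alternatives were a pseudocount of 0.1, the fit without a filter, a minimum mean of 10 FPKM, only the 6 libraries compared, a replicate block, median-ratio and upper-quartile scaling, removal of the trends, and each library left out.

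The members and the gene lists were chosen with earlier results of these data known. Named were all members, the knockdown targets, in each list the gene with the smallest p in each knockdown and genes set by hand, 3 annotated genes on each side of *Prmt1*, and by Pearson r the 5 genes most like *Prmt1* and 1 for each other member. Other genes were named after their values were seen, where 5 or fewer were called or as examples of a list. A gene that the rule names is not reported here. Python 3.11.15 made the tables and figures.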

Additional observations from a re-analysis of the deposited data

How the results depend on the processing

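*Prmt1* kept its H3.3-KD direction in all 17 alternatives, at 5.97 to 7.09 on the log2 scale, and no alternative gave a member an adjusted p under 0.05 in MFN1-KD. Some of these fits called almost no gene in MFN1-KD. With only the 6 libraries compared, or without control library 2 or 3, 0 genes passed, and 2 of 32672 passed with no filter. Such fits could hardly have called a member. Members more than 2-fold on the log2(FPKM + 1) scale with an unadjusted p under 0.05 in MFN1-KD (1) became 0 at a mean of at least 10 FPKM, where *Prmt7* is not fitted, and 0 to 2 with a library left out. Members more than 2-fold higher in H3.3-KD on the same scale (3) became 1 after GC and length removal and 2 to 4 with a library left out. Calls among the 75 pathway genes in MFN1-KD (3) became 1 with a pseudocount of 0.1, 0 with no filter, 5 at a mean of at least 10 FPKM, 0 with only the 6 libraries compared, 1 after GC and length removal and 0 to 3 with a library left out. Lower calls in H3.3-KD (3) became 6 with upper-quartile scaling and 8 after GC and length removal, and the 29 higher calls became 20 under both scalings and 22 to 34 with a library left out. Log2 values that turned sign were *Prmt1* in MFN1-KD (0.0042) and *Prmt6* in H3.3-KD (-0.13) after GC and length removal. With a library left out, *Carm1* in MFN1-KD ranged from -0.72 to 0.073 (without MFN1-KD library 3), *Prmt9* in MFN1-KD from -0.014 (without MFN1-KD library 1) to 0.87, and *Prmt7* in H3.3-KD from -0.31 to 0.15, above 0 without control library 2 or H3.3-KD library 3. The cause of these moves was not tested.

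Libraries with the same number had correlations of their deviations from the group means of -0.05 to 0.16, not all above 0.1, so the numbers were not read as pairs. With the replicate block, the MFN1-KD pathway calls went from 3 to 0, and 29 pathway genes were again higher in H3.3-KD.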
